A study of Mus musculus with 11 samples.

Results

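The genes described here are 10 of the 36529 listed by symbol in the count data: Axl, Lilrb4a, Spp1, Itgax, Cd9, Cd63, Trem2, Tyrobp, Lgals3 and Gpnmb. They were chosen by name as genes of the disease-associated state of microglia, and each matched a single symbol. Clec7a and Csf1, which belong to the same state, had 0 counts in all 11 libraries and were left out. A count of 0 allows a level of up to 0.0430 to 0.0755 CPM, taken as 3 counts per library, and this covers counting error only. RefSeq loci overlap both genes (Gm45969 for Clec7a and Gm40121 for Csf1) and the overlap mode of the counting is not stated, so the limit holds for counted reads and not for expression. Levels are given as CPM, counts scaled to library size, here with TMM-adjusted sizes.

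The samples were BV2 cells, a transformed mouse line used in place of microglia, and RNA was counted by gene. In one experiment, 3 samples received nApoE4, the human ApoE4 fragment of residues 1 to 151, at 25 μg/ml for 5 h, and 3 untreated samples were their controls. In a separate experiment, 2 samples received nApoE3, which differs from nApoE4 by a single residue, at the same dose and time, and 3 untreated samples were their controls. The labels name a PBS vehicle and the methods name conditioned media, so it is not known which of them the controls received. Each fragment was run in its own experiment with its own controls, so fragment and experiment cannot be told apart where the treated groups are compared. Nothing in the labels says that the samples came from separate cultures, so p-values measure the spread between these samples, which may be technical. Depth was 39732710 to 44162511 counts per library in the nApoE4 experiment and 55809688 to 69768666 in the nApoE3 experiment.

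Microglia that meet amyloid plaques, dying neurons or demyelinated axons leave their resting state, lower genes such as P2ry12 and Tmem119, and raise a set of genes for lipid handling, lysosomal work, adhesion and phagocytosis. The receptor TREM2 senses lipids and ApoE and signals through its adaptor TYROBP, and in mice the later part of this change needs TREM2. ApoE is a ligand of TREM2, and Apoe is itself a gene of the state.

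The identity of the line was read from its markers. Of 10 microglia and macrophage markers, 8 reached 1 CPM, among them Csf1r at 676.5 to 814.1 CPM and Cd68 at 706.7 to 1143 CPM, while Aif1 stayed at 0.142 CPM or below and Cx3cr1 at 0.739 CPM or below. Of 5 markers restricted to microglia, P2ry12 had 0 counts in every library, Sall1 had at most 2 and Siglech at most 10. The others were detected, Tmem119 at 1.25 to 9.15 CPM and Fcrls at 0.429 to 1.785 CPM. BV2 cells therefore carried 8 of the 10 microglia and macrophage markers at 1 CPM or above, but not the defining resting markers P2ry12 and Sall1. The summed level of the 5 microglia-restricted markers was 3.46 to 3.69 CPM in the nApoE4 controls and 1.83 to 2.29 CPM with nApoE4, and 9.80 to 10.98 CPM in the nApoE3 controls and 2.83 to 3.21 CPM with nApoE3. The summed level of 5 astrocyte markers moved with treatment, from 1.36 to 1.56 CPM in controls to 6.88 to 7.89 CPM with nApoE4, and from 1.45 to 1.92 CPM to 5.88 to 6.02 CPM with nApoE3. It came mostly from the glutamate transporter gene Slc1a2, at 0.781 to 6.76 CPM. Slc1a3 added 0.156 to 1.65 CPM and Aldh1l1 at most 0.424 CPM, while Gfap had at most 4 counts and Aqp4 at most 1. The summed level of 4 oligodendrocyte markers was 9.33 to 14.3 CPM in the nApoE4 experiment and 22.2 to 25.5 CPM in the nApoE3 experiment, with Mog at 0 counts throughout. The summed markers of neurons, fibroblasts, and T and B cells stayed below 0.6 CPM, and those of endothelial cells were at 0.907 to 1.86 CPM with Cldn5 at 0 counts. The part of any such marker in the results on the 10 genes was not tested.

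Promoter sequence is shown for the members whose start regions help to compare genes that rose with genes that did not. Axl and Spp1 rose with both fragments, and Itgax and Gpnmb did not. RefSeq promoter windows of GRCm38.p6, 250 bases before to 50 after a transcript start, were at hand for 8 of the 10 members in 9 windows, with 2 starts for Spp1. The first 270 bases are printed 5′ to 3′ on the gene's strand, at chr7:25788714-25788983 (minus strand) for Axl, chr5:104434861-104435130 for Spp1, chr7:128129300-128129569 for Itgax and chr6:49036268-49036537 for Gpnmb. Capitals mark motif letters that were found on either strand.
Axl: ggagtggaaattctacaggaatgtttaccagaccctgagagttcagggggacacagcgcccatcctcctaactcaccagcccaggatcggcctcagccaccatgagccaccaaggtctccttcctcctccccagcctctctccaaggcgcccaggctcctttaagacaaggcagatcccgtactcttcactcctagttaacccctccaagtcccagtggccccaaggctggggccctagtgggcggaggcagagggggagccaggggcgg
Spp1: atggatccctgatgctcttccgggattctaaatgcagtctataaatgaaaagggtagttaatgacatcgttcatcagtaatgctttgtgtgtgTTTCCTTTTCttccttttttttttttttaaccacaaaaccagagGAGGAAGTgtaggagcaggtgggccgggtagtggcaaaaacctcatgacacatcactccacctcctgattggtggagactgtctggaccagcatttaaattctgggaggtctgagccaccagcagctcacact
Itgax: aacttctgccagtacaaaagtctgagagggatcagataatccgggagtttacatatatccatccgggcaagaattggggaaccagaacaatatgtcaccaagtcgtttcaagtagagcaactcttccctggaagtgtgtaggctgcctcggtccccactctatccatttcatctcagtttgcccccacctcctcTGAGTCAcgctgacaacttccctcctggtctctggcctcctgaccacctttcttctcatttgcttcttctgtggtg
Gpnmb: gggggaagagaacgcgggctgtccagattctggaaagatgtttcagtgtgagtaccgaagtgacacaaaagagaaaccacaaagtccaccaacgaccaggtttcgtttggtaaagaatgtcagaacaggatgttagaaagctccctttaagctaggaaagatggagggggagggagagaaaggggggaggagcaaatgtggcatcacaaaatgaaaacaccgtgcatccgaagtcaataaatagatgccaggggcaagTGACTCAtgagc
The letters searched were TGACTCA for AP-1, GAGGAAGT for PU.1, TTCNNNGAA for the gamma-activated site, CACGTG for the E-box and TCATGTG for the M-box, and core matches to the interferon-stimulated response element and to NF-kB, each on both strands. Spp1 held the PU.1 letters 113 to 106 bases before its start and the interferon-stimulated response element letters 157 to 148 bases before it. The Itgax window held the AP-1 letters 56 to 50 bases before its start, and the Gpnmb window held them 8 to 14 bases after its start. Cd9 held the NF-kB letters 229 to 220 bases before its start. The windows of Axl, Cd63, Lgals3 and Trem2, and the second Spp1 start, held none of these letters. Over all 32851 windows, 5.2% held the AP-1 letters, 3.2% the PU.1 letters, 3.44% the interferon-stimulated response element, 1.63% the NF-kB letters, 8.3% the gamma-activated site, 7.15% the E-box and 3.77% the M-box. Lilrb4a and Tyrobp had no window, so of the 3 members that rose only Axl and Spp1 could be compared. A match describes letters and not a bound site.

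Levels between genes were compared per length, as CPM per kilobase of the principal transcript. In the nApoE4 controls the order of levels was Gpnmb at 2098 ± 93.9 CPM per kilobase, Spp1 at 1653 ± 233, Tyrobp at 1108 ± 157, Lgals3 at 1014 ± 144, Cd63 at 451.8 ± 67.9, Cd9 at 234.4 ± 30.4, Lilrb4a at 117.2 ± 8.19, Trem2 at 19.7 ± 31.1, Itgax at 15 ± 0.615 and Axl at 0.0121 ± 0.00750 (SD, n = 3). Tyrobp lay above Lgals3 in each of the 3 libraries, at 1083, 1276 and 965.2 against 984.5, 1170 and 886.2 CPM per kilobase. The mean of Trem2 and its place above Itgax came from a single library, at 55.6 CPM per kilobase against 2.30 and 1.22 in the other 2, where Trem2 lay below Itgax. In the nApoE3 controls Spp1 led at 1249 ± 57.9 CPM per kilobase, above Gpnmb at 909.8 ± 17.1 (SD, n = 3). Over all annotated exons of a gene in place of the principal transcript, the order in the nApoE4 controls changed. Spp1 then stood above Gpnmb there too, at 1512 against 1192 CPM per kilobase, and Cd9 above Cd63, at 140.8 against 136.1. Itgax stood above Trem2, at 12.6 against 4.34. In the nApoE3 controls, over the principal transcript, Trem2 stood at 0.663 ± 0.0866 CPM per kilobase, Itgax at 12.3 ± 0.379 and Axl at 0.0259 ± 0.0144 (SD, n = 3). These were the members with the lowest levels in both control groups.

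**Figure D1:**
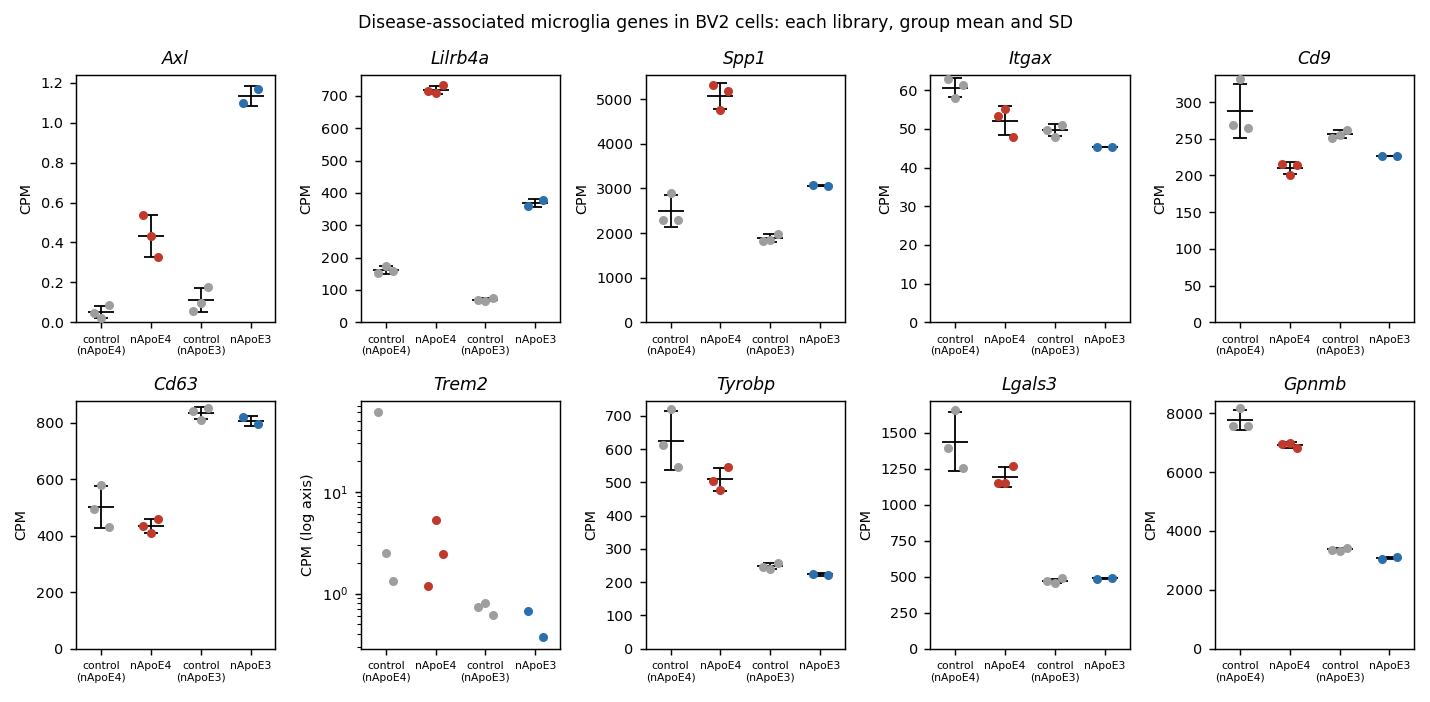
Levels of the 10 genes in CPM, 1 panel per gene, with points for libraries and bars for the group mean and SD (3 libraries per group, 2 for nApoE3). Trem2 is on a log axis without bars. Lilrb4a stood at 151.9 to 174.2 CPM in the nApoE4 controls and at 708.8 to 732.8 CPM with nApoE4.

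Each fragment was first compared with its own controls, by edgeR's quasi-likelihood test over all genes with Benjamini-Hochberg adjustment. With nApoE4, the receptor genes Axl and Lilrb4a and the secreted ligand gene Spp1 rose, and Cd9, Tyrobp, Lgals3 and Itgax fell. With nApoE3, the same 3 genes rose, and Cd9, Tyrobp, Itgax and Gpnmb fell. The rises were 1.62-fold to 10.4-fold and the falls were small, at log2 changes between -0.45 and -0.14. Of the 10 members tested, 7 passed an adjusted p of 0.05 with nApoE4, where 57.2% of 14240 genes did, and 7 with nApoE3, where 67.7% of 14817 genes did. In these samples a large share of all genes was called, so the members' share stands near the background. The 3 rises and 4 falls stood beside 28.6% and 28.6% of all genes with nApoE4, and beside 33.1% and 34.6% with nApoE3. The median log2 change over the members was -0.21 with nApoE4 and -0.09 with nApoE3, beside 0.0013 and -0.0026 over all genes tested. In bulk RNA, fewer cells of a kind and less RNA per cell cannot be told apart.

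Read by library, 3 members lay above and 3 below their controls with no overlap in the nApoE4 experiment, where 31.5% and 32.1% of all genes did. In the nApoE3 experiment 3 lay above and 4 below, where 38.6% and 39.0% of all genes did.

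**Figure D2:**
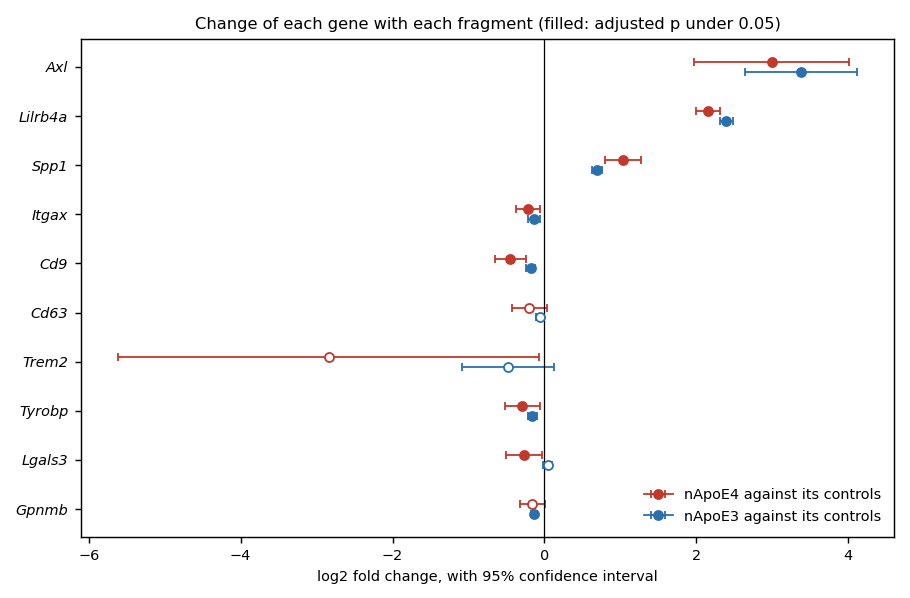
Log2 fold change of each gene with nApoE4 and with nApoE3 against its own controls, with 95% confidence intervals. Filled points passed an adjusted p of 0.05. Axl, Lilrb4a and Spp1 lie right of 0 with both fragments, and the other members lie at or left of 0 except Lgals3 with nApoE3, at 0.05.

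Axl encodes a TAM receptor tyrosine kinase that takes up dying cells through the bridging ligand Gas6. It lies on chromosome 7 at 25757273 to 25788705 on the minus strand of GRCm38. Its counts were 2, 1 and 4 in the nApoE4 controls and 23, 18 and 13 with nApoE4, and 4, 6 and 10 in the nApoE3 controls and 64 and 66 with nApoE3. Every treated library stood above every control of its experiment, yet the controls held at most 10 counts and the gene reached only 1.10 to 1.17 CPM at its highest. Counts were also summed over libraries and scaled by total counts, without the TMM adjustment. The ratio to controls was then 7.86 with nApoE4, from 54 against 7 counts, with an exact 95% counting interval of 3.57 to 20.5. With nApoE3 it was 9.73, from 130 against 20 counts, with an interval of 6.05 to 16.5. The fitted log2 changes were 2.99 ± 0.46 (SE, adjusted p = 0.000353) and 3.38 ± 0.34 (SE, adjusted p = 2.08e-06), and at these counts they depend on the prior count.

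Lilrb4a encodes an inhibitory receptor of the immunoglobulin superfamily that signals through ITIM motifs. The gene is on chromosome 10 at 51490956 to 51496611. Its levels were 151.9, 174.2 and 159.4 CPM in the nApoE4 controls and 715.4, 708.8 and 732.8 CPM with nApoE4. They were 67.9, 67.2 and 74.4 CPM in the nApoE3 controls and 360.2 and 377.7 CPM with nApoE3. The treated libraries stood far above all controls in both experiments, and the nApoE3 libraries stood below the nApoE4 ones as their controls did. The rise was 4.46-fold with nApoE4 (log2 2.16 ± 0.07 SE, adjusted p = 8.86e-09) and 5.27-fold with nApoE3 (log2 2.40 ± 0.04 SE, adjusted p = 9.64e-14).

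Counting on Lilrb4a is uncertain, since 16.3% of its possible 75-base reads also occur in the near copy Lilr4b and 40.3% in some other annotated gene. Lilr4b rose too, by 2.75 ± 0.07 (log2, SE) with nApoE4 and 2.97 ± 0.04 with nApoE3 (adjusted p = 2.43e-09 and 1.95e-14).

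Spp1 encodes osteopontin, a secreted phosphoprotein that binds integrins and CD44. It lies on chromosome 5 at 104435118 to 104441050, directly downstream of the Spp1 promoter printed above. Its levels were 2286, 2897 and 2291 CPM in the nApoE4 controls and 5314, 4756 and 5181 CPM with nApoE4. They were 1816, 1848 and 1981 CPM in the nApoE3 controls and 3067 and 3056 CPM with nApoE3. No control reached a treated library of its experiment, and the nApoE4 libraries were the highest of all. The rise was 2.05-fold with nApoE4 (log2 1.03 ± 0.11 SE, adjusted p = 2.27e-05) and 1.62-fold with nApoE3 (log2 0.70 ± 0.03 SE, adjusted p = 5.72e-10). Against a fold change of 2 as the null, Spp1 did not pass with either fragment (adjusted p = 0.992 and 1). Of its possible 75-base reads, 8.55% also occur in Gm42793.

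Itgax encodes CD11c, the integrin alpha chain that marks plaque-associated microglia and pairs with the beta chain of Itgb2. It lies on chromosome 7 at 128129547 to 128150657. Its levels were 62.82, 57.95 and 61.25 CPM in the nApoE4 controls and 53.4, 55.2 and 47.8 CPM with nApoE4. They were 49.79, 47.98 and 51.03 CPM in the nApoE3 controls and 45.29 and 45.31 CPM with nApoE3. The treated libraries lay below all controls of their experiment, by a small step. The change was -0.21 ± 0.07 (log2, SE, adjusted p = 0.0238) with nApoE4 and -0.14 ± 0.04 (adjusted p = 0.00435) with nApoE3. The nApoE4 call was lost without the first control library (adjusted p = 0.0888), without the first nApoE4 library (0.0522) and without the third (0.105). The nApoE3 call was lost in 1 fit of all 11 samples (adjusted p = 0.0938).

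Cd9 and Cd63 encode tetraspanins, which organise membrane domains, and CD63 also marks late endosomes and exosomes. Cd9 lies on chromosome 6 at 125460266 to 125494791 on the minus strand and Cd63 on chromosome 10 at 128900989 to 128912822. Cd9 was at 268.5, 331 and 264.2 CPM in the nApoE4 controls and 216.2, 200.1 and 213.9 CPM with nApoE4. It was at 251.3, 255.4 and 262.4 CPM in the nApoE3 controls and 226.8 and 227 CPM with nApoE3. Every treated library lay below every control of its experiment. Cd9 fell by 0.45 on the log2 scale with nApoE4 (SE 0.09, adjusted p = 0.00197) and by 0.18 with nApoE3 (SE 0.02, adjusted p = 3.10e-05). The nApoE3 call was lost in 1 fit of all 11 samples (adjusted p = 0.0873). Cd9 overlaps the RefSeq loci Gm28809 and Gm26728, and since the strand setting of the counting is not stated, their reads cannot be told apart.

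Cd63 was at 494.5, 579.5 and 429.3 CPM in the nApoE4 controls, 434.4, 410.7 and 460 CPM with nApoE4, 839.6, 810.4 and 851.5 CPM in the nApoE3 controls, and 819.6 and 794.4 CPM with nApoE3. Treated and control libraries overlapped in both experiments. Its log2 change was -0.20 with nApoE4 (95% interval -0.43 to 0.03, adjusted p = 0.131) and -0.05 with nApoE3 (-0.11 to -0.0012, adjusted p = 0.0656). It passed with nApoE4 without the third control library (-0.30, adjusted p = 0.0160), and with nApoE3 without the second control (adjusted p = 0.0132) or the first nApoE3 library (0.0419).

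Trem2 encodes the lipid and ApoE receptor of the state. The gene is on chromosome 17 at 48346401 to 48354147. Its counts were 2578, 112 and 62 in the nApoE4 controls, 51, 220 and 97 with nApoE4, 52, 50 and 35 in the nApoE3 controls, and 39 and 21 with nApoE3. The first nApoE4 control library stood apart from the other 10, which held 21 to 220 counts. The log2 change with nApoE4 was -2.84 (95% interval -5.62 to -0.07, adjusted p = 0.0752), and without that library it turned to 0.64 (adjusted p = 0.362). With nApoE3 the log2 change was -0.47 (95% interval -1.08 to 0.13, adjusted p = 0.151). Neither change of Trem2 passed in these fits. With nApoE4 it did pass with no filter on low counts (adjusted p = 0.0101), in 1 fit of all 11 samples (0.0339) and without the second or the third control (adjusted p = 0.00939 and 0.0110), which leaves the first control in, and with nApoE3 without the first nApoE3 library (-0.96, adjusted p = 0.0283).

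The spread of Trem2 between replicates was the third widest of 12696 genes with over 50 counts in some library, at a within-group SD of 1.61 on the log2(CPM + 0.25) scale. The other 9 members had SDs of 0.04 to 0.19. The controls of Axl lay below the 0.25 CPM added, so this scale shrinks its spread. The SD of Axl in CPM was 61.9% of its mean in the nApoE4 controls and 55.7% in the nApoE3 controls. Nfya, the gene of a CCAAT-binding subunit 34609 bases downstream of Trem2, held 17 to 166 counts in the nApoE4 group and ranked 62nd by this spread. Oard1, 57681 bases downstream, held 4 and 142 counts in the nApoE3 libraries and ranked 51st. Treml1, nearer at 7640 bases downstream, held 3 to 8 counts in the nApoE4 controls and at most 1 in the other groups. These counts were too low for it to be ranked. Of the 50 genes with the widest spread, 14 lie on chromosome 17, which holds 543 of the 12021 ranked genes with a position. The cause was not tested.

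**Figure D3:**
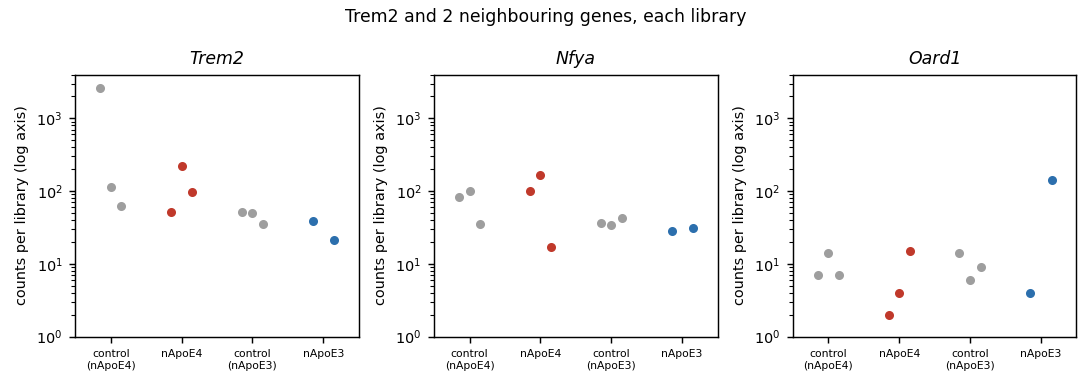
Counts of Trem2, Nfya and Oard1 in each library on a log axis, by group. The first nApoE4 control library holds 2578 Trem2 counts against 21 to 220 in the other 10, and in the nApoE3 group Oard1 holds 4 and 142 counts.

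Tyrobp encodes DAP12, the ITAM adaptor that carries the TREM2 signal. It lies on chromosome 7 at 30413760 to 30417585. Its levels were 610.6, 719.8 and 544.4 CPM in the nApoE4 controls and 502.6, 477.5 and 545.5 CPM with nApoE4. They were 245.8, 239.7 and 256.4 CPM in the nApoE3 controls and 225.4 and 220 CPM with nApoE3. The groups overlapped in the nApoE4 experiment, by a single library, and not in the nApoE3 experiment. Tyrobp fell by 0.29 on the log2 scale with nApoE4 (SE 0.10, adjusted p = 0.0339) and by 0.16 with nApoE3 (SE 0.03, adjusted p = 0.000434). The nApoE4 call was lost without the first control library (adjusted p = 0.0665), without the first nApoE4 library (0.0949) and without the second (0.108). The nApoE3 call was lost in 1 fit of all 11 samples (adjusted p = 0.197).

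Lgals3 encodes galectin-3, a beta-galactoside-binding lectin that gathers on damaged lysosomes and is also released. The gene is on chromosome 14 at 47367751 to 47386160. Its levels were 1397, 1661 and 1257 CPM in the nApoE4 controls and 1148, 1150 and 1270 CPM with nApoE4. They were 468.1, 454.4 and 487.3 CPM in the nApoE3 controls and 485.9 and 489 CPM with nApoE3. The groups overlapped in both experiments. Lgals3 fell by 0.27 on the log2 scale with nApoE4 (SE 0.10, adjusted p = 0.0479), close to the threshold. With nApoE3 the log2 change was 0.05 (95% interval -0.01 to 0.11, adjusted p = 0.157). The nApoE4 call was lost when any of 5 of the 6 libraries was left out, the third control being the exception, and the nApoE3 change passed without the third nApoE3 control (0.07, adjusted p = 0.0141).

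Gpnmb encodes a transmembrane glycoprotein of lysosomes and melanosomes. It lies on chromosome 6 at 49036546 to 49070929. Its levels were 7551, 8164 and 7574 CPM in the nApoE4 controls and 6940, 6991 and 6817 CPM with nApoE4. They were 3363, 3306 and 3433 CPM in the nApoE3 controls and 3056 and 3102 CPM with nApoE3. The treated libraries lay below all controls in both experiments. The log2 change was -0.16 (95% interval -0.33 to 0.0038, adjusted p = 0.0876) with nApoE4, which passed by DESeq2 (adjusted p = 0.0144), in 1 fit of all 11 samples (0.00409) and without the second control (0.0487), and Gpnmb fell by 0.14 with nApoE3 (SE 0.02, adjusted p = 2.55e-05).

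The fragments were then compared by the difference of their log2 changes, nApoE4 minus nApoE3, in a fit of all 11 samples. Of the 10 members, 1 passed an adjusted p of 0.05, where 28.3% of 15287 genes did. Over all genes, 14.4% had a higher and 13.9% a lower value. Lilrb4a rose less with nApoE4, with a difference of -0.25 ± 0.09 (log2, SE, adjusted p = 0.0433), and this call was lost without any one of 7 of the 11 libraries, the 3 nApoE4 libraries, the first and second nApoE3 controls and both nApoE3 libraries. The difference was 0.33 for Spp1 (95% interval 0.06 to 0.59, adjusted p = 0.0651), -0.33 for Lgals3 (-0.59 to -0.06, adjusted p = 0.0651) and -0.28 for Cd9 (-0.52 to -0.04, adjusted p = 0.0770). Without the second nApoE4 control, Spp1 (adjusted p = 8.09e-05), Cd9 (0.0362) and Lgals3 (0.0397) passed. Without the third, Cd9 (0.0247) and Lgals3 (0.00683) passed, and without the second nApoE4 library, Spp1 did (0.0420). The difference was -0.16 for Cd63 (-0.43 to 0.12), -0.15 for Tyrobp (-0.42 to 0.13), -0.09 for Itgax (-0.27 to 0.09) and -0.04 for Gpnmb (-0.18 to 0.10). For Axl the interval ran from -2.04 to 1.28 and for Trem2 from -7.53 to 2.78, so these counts bound the difference only loosely. Trem2's difference of -2.38 (adjusted p = 0.507) turned to 1.11 (adjusted p = 0.337) without the first nApoE4 control library.

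The untreated libraries of the 2 experiments were compared next, since they show how far the same line stood apart without treatment. Of 9 members tested, 8 passed an adjusted p of 0.05, where 69.3% of 14249 genes did. Axl did not pass the filter on low counts here. Over all genes 34.4% were higher and 34.9% lower, and the groups did not overlap for 38.2% and 36.0%. Of the members, 1 lay above and 8 below with no overlap. In the nApoE3 controls Cd63 was higher, by 0.72 ± 0.10 (log2, SE, adjusted p = 0.000289), and 7 members were lower. Lgals3 was lower by a log2 difference of -1.63 (adjusted p = 3.23e-06), Tyrobp by -1.35 (adjusted p = 7.48e-06), Lilrb4a by -1.23 (adjusted p = 1.88e-06) and Gpnmb by -1.22 (adjusted p = 5.95e-07). Smaller differences held for Spp1, at -0.42 (adjusted p = 0.00406), and Itgax, at -0.31 (adjusted p = 0.000839). Trem2 was lower by -4.90 (adjusted p = 0.0177), and by -1.41 (adjusted p = 0.00579) without the first nApoE4 control library. This call was lost without any one of the 3 nApoE3 controls (adjusted p = 0.0578, 0.0526 and 0.0559). Cd9 had a log2 difference of -0.18 (adjusted p = 0.0837), and it passed without the third nApoE4 control (0.0300). The median over the 9 members was -1.22, beside -0.0096 over all genes. For Lgals3, Tyrobp, Gpnmb, Cd63, Itgax and Trem2 the difference between control groups was larger in size than the change with either fragment, and what separated the 2 sets of controls was not tested.

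**Figure D4:**
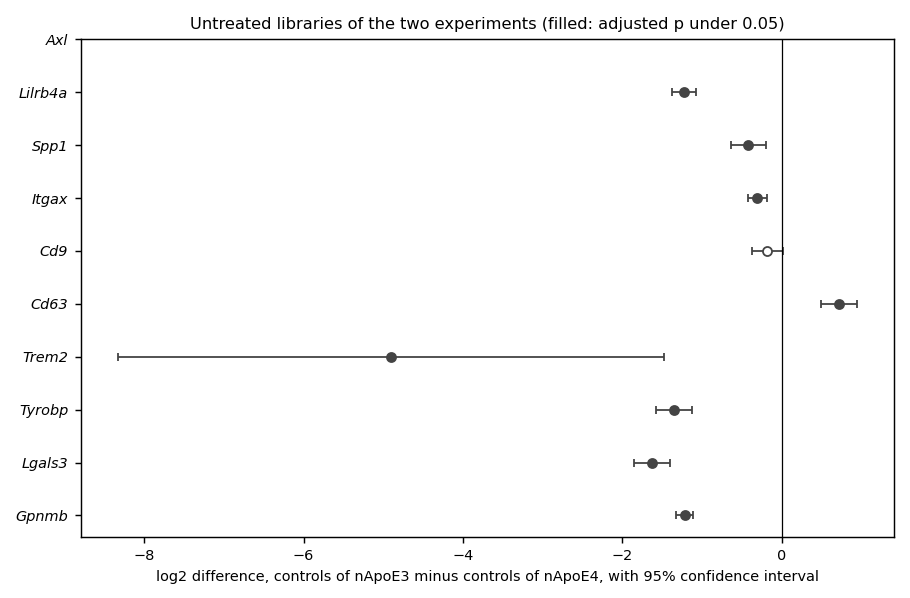
Log2 difference of each tested gene, nApoE3 controls minus nApoE4 controls, with 95% confidence intervals (3 libraries per group). Filled points passed an adjusted p of 0.05. Axl was not tested and its row is empty. Cd63 lies at 0.72, and the other 8 genes lie between -4.90 and -0.18.

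Related lists place the 10 genes in their pathways. They hold other genes of the same state and of the receptors, ligands and partners above. The counts below are read against all genes tested, of which 28.6% rose and 28.6% fell with nApoE4, and 33.1% rose and 34.6% fell with nApoE3. Of 29 other genes of the disease-associated state, 23 were tested. With nApoE4, 5 rose and 11 fell, with a median log2 change of -0.21, and with nApoE3, 11 rose and 8 fell, with a median of 0.0013. Hif1a, a hypoxia-responsive transcription factor, rose by 1.27 with nApoE4 (log2, adjusted p = 6.41e-07) and by 0.85 with nApoE3 (adjusted p = 5.32e-10). Cst7, a cystatin that inhibits cathepsins, rose by 1.17 (adjusted p = 1.98e-06) with nApoE4, and Igf1, a growth factor, by 1.15 (adjusted p = 1.23e-07). In the nApoE3 experiment the mean of Cst7 also went up, from 36.5 to 53.5 CPM, and that of Igf1 from 92.8 to 112.7 CPM. Ank fell by 1.23 and Timp2, a metalloproteinase inhibitor, fell by 0.92 with nApoE3 (adjusted p = 1.17e-11 and 1.13e-11). In the nApoE4 experiment the mean of Ank also went down, from 128.7 to 63.6 CPM, and that of Timp2 from 96.4 to 55.8 CPM.

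Of 16 homeostatic genes, 8 were tested with nApoE4, and 6 fell, with a median log2 change of -0.43, where 28.6% of all genes fell. With nApoE3, 10 were tested, of which 1 rose and 8 fell, with a median of -0.39, where 34.6% of all genes fell. Mef2c, a transcription factor of resting microglia, fell by 1.58 with nApoE4 and by 1.78 with nApoE3 (log2, adjusted p = 1.27e-07 and 3.06e-13). Tmem119, at 1.42 to 8.56 CPM by group mean, fell by 0.98 and by 2.40 (adjusted p = 0.000595 and 2.82e-09).

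Of 22 genes of TREM2-TYROBP signalling, all tested, 10 rose and 11 fell with nApoE4 (median -0.02), and 11 rose and 8 fell with nApoE3 (median 0.17), where 57.2% and 67.7% of all genes were called. The kinase genes Src and Syk were among those with the largest changes in both. Src rose by 2.93 ± 0.07 (log2, SE) with nApoE4 and 3.44 ± 0.05 with nApoE3, and Syk, the kinase docked on the ITAM of TYROBP, by 1.74 ± 0.07 and 1.59 ± 0.03. Syk stood at 132.5 CPM in the nApoE4 controls and 440.4 CPM with nApoE4, as means of 3 libraries. The signalling genes thus moved in both directions.

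Of the 4 TAM receptor and ligand genes other than Axl, 2 were tested with each fragment. Mertk, the TAM receptor that serves uptake by resting phagocytes, fell by 2.30 ± 0.11 (log2, SE) with nApoE4 and by 2.64 ± 0.04 with nApoE3 (adjusted p = 1.14e-07 and 2.31e-14). Its mean level went from 45.7 to 9.26 CPM with nApoE4 and from 95.7 to 15.4 CPM with nApoE3. Axl and Mertk therefore moved in opposite directions with both fragments. Pros1, the gene of protein S, fell by 0.62 with nApoE3 (adjusted p = 0.0122).

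Of 12 genes of osteopontin receptors and CD11c partners, 11 were tested. With nApoE4, 7 rose and 2 fell (median 1.47), and with nApoE3, 9 rose and 2 fell (median 0.72). Icam1, which binds beta-2 integrins, rose 12.1-fold and 7.34-fold, Itga5, an integrin alpha chain, rose 5.65-fold and 7.45-fold, and Cd44, an osteopontin receptor, rose 4.87-fold and 3.29-fold with nApoE4 and nApoE3. Adjusted p-values of these 6 changes ran from 4.51e-16 to 3.19e-09.

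Of 9 other tetraspanins, 2 rose and 6 fell with nApoE4 (median -0.29), and 3 rose and 6 fell with nApoE3 (median -0.20). Tspan14 fell by 1.58 and by 1.27, and Cd82 rose by 1.29 and by 0.94 (log2, with nApoE4 and nApoE3). Of 5 other galectin genes and partners, 3 rose and 1 fell with each fragment. Lgals9 rose by 1.47 with nApoE4 and by 2.41 with nApoE3, and Lgals3bp, a galectin-3 ligand, rose by 1.06 and by 1.49. Of 4 MiT/TFE factors, which drive lysosomal genes and in other cells Gpnmb, 3 rose and 1 fell with each fragment. Tfec rose by 2.68 and by 1.43, Mitf by 0.95 and by 0.94, and Tfeb fell by 1.75 and by 1.70. Of 6 paired immunoglobulin-like receptor genes listed, 5 are in the files, and 4 of 5 tested rose with nApoE4 and 2 of 3 with nApoE3. Pirb rose by 1.62 with nApoE4 and by 2.36 with nApoE3, and Pira2 rose by 1.08 with nApoE4. All of these passed the test of their comparison, and the 2 fragments share no control libraries.

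**Figure D5:**
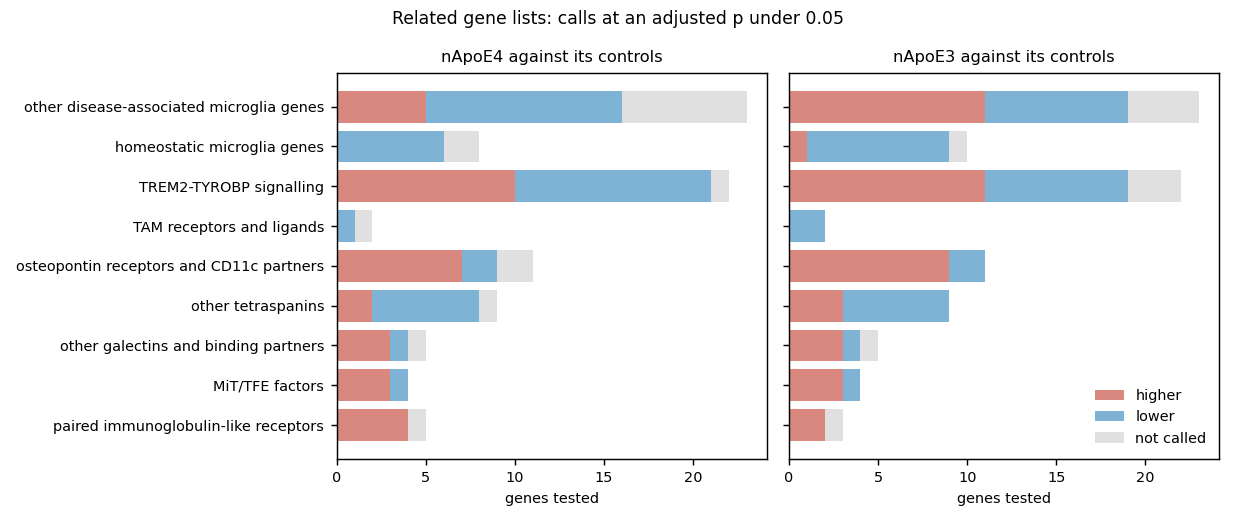
Number of genes tested in each related list that were higher, lower or not called at an adjusted p under 0.05, with nApoE4 on the left and nApoE3 on the right. Of the homeostatic genes 6 of 8 are lower with nApoE4 and 8 of 10 with nApoE3, while 7 of 11 and 9 of 11 osteopontin receptors and CD11c partners are higher.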

How the data were processed

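RNA was measured in 11 BV2 samples. The authors trimmed single-end reads of 75 bp with Trim Galore 0.5.0, checked them with FastQC 0.11.8, mapped them to GRCm38.p6 with HISAT2 2.1.0 and deposited unnormalized counts per gene from HTSeq 0.11.0. Tool versions are from the submitters' processing notes. The annotation release, strand setting and overlap mode are not given in the sources used here. Reads on genes made up 76.0 to 77.7% of the tally, and non-unique alignments, 11.7 to 13.2%, were left off genes. The tallies were left out of library sizes.

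Counts were tested in R 4.3.3 with edgeR 4.0.16 (filterByExpr, TMM, quasi-likelihood F test, Benjamini-Hochberg adjustment, threshold 0.05). Each fragment was fitted with its own controls, the control groups with each other, and the difference over 11 samples. Standard errors are the log2 change over the square root of F. A level of 3 counts was the floor. Gene positions are from GENCODE, and promoters from RefSeq. The 36529 symbols matched 33061 RefSeq symbols. Python 3.11.15 made the tables. The fits were tested on simulated counts.

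All 10 members are named. Of each related list, up to 3 genes with the largest change among those past the threshold and at 1 CPM or above in some group are named. One gene so chosen is not reported here. The members and lists were chosen with earlier results of these data known. The alternatives were DESeq2 1.42.0, its size factors, 2 other filters, thinning, a test against a fold of 2, a joint fit, a replicate block and leaving out each library.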

Additional observations from a re-analysis of the deposited data

Results flagged for a closer look

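Lilrb4a was picked out because its response differed between the fragments in the test of the difference itself. The log2 difference, nApoE4 minus nApoE3, was -0.25 (adjusted p = 0.0433 by edgeR's quasi-likelihood test), with a rise in 3 of 3 nApoE4 and 2 of 2 nApoE3 libraries. It stayed past the threshold in 8 of 18 alternatives.

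Lgals3 was picked out because all 3 nApoE4 libraries lay below the mean of their controls and both nApoE3 libraries lay above theirs. The log2 difference was -0.33, and its adjusted p of 0.0651 did not pass the threshold. Each fragment had its own experiment, so both results could belong to either, and these cannot be told apart. Other members and the outlying Trem2 library are described in the report, and groups of 2 or 3 libraries were not tested for single outliers.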

How the results depend on the processing

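Of 561 alternative values of single members, 490 kept their direction and side of the threshold, 45 lost and 22 gained the call, and 4 turned direction. Axl and Lilrb4a passed in all alternatives that could be fitted with each fragment, and Spp1 in all but the test against a fold change of 2. Leaving out 1 library moved Trem2 with nApoE4 from -3.57 to 0.64 and its difference from -3.09 to 1.11 (the highest without the first nApoE4 control), the Gpnmb difference from -0.058 to 0.0010 (without the second) and the Axl difference from -0.87 to 0.19 (without the third).

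Against a fold change of 2, 1575 genes and 2 members were called with nApoE4, 1495 and 2 with nApoE3, 191 and 0 for the difference, and 1354 and 4 between controls. In 1 fit of 11 samples, 9 members were called with nApoE4 (Trem2 and Gpnmb gained) and 4 with nApoE3 (Itgax, Cd9 and Tyrobp lost). With a replicate block, 4 members were called with nApoE4, 8 with nApoE3, and 2307 genes and 0 members for the difference. Same-numbered libraries did not deviate together (correlations -0.17 to -0.04 and -0.01). Deviations from a mean of 3 or 2 libraries are tied to each other, so this check cannot decide whether the numbers pair them. For the difference, 4 members had an unadjusted p under 0.05 in edgeR, and DESeq2 called 1.

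Leaving out 1 library gave 4 to 9 members with nApoE4 (4 without the first control or the first nApoE4 library), 7 to 9 with nApoE3, 0 to 4 for the difference and 7 to 9 between controls. For the difference, 4 were called without the second nApoE4 control and 3 without the third, and 0 without nApoE4 replicate 1 or 3, nApoE3 control 1 or 2, or either nApoE3 library. The cause of these losses was not tested. DESeq2 gave no adjusted p for Trem2 with nApoE4. Low counts limit Axl and Trem2.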
